A study of Mus musculus with 9 samples.

Results

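The ERK feedback genes described here are Dusp4, Dusp5, Dusp6, Dusp7, Spry1, Spry2, Spred1 and Spred2. They were taken by symbol, and all 8 were found among the 31053 genes of the count files. In microglia-like cells Dusp6 and Dusp7 were lower at the end of CSF1R inhibition than in untreated mice, and Dusp6, Dusp7 and Spry1 were lower 2 days after the drug was withdrawn. Dusp5 did not follow them, with a higher mean level in treated than in untreated libraries. Of all genes tested in these cells, 7.42% and 7.74% were called lower at these times. The earlier calls of Dusp6 and Dusp7 were lost in 6 and 9 of 25 other settings. The later calls of Dusp6, Dusp7 and Spry1 were lost in 1, 1 and 4. In endothelial-like cells of the same libraries no member passed the test, where 0.0122% and 0.0608% of all genes tested did.

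ERK1 and ERK2 are the last kinases of the cascade that runs from receptor tyrosine kinases over Ras, Raf and MEK. Once active they drive transcription factors of the ETS, AP-1 and SRF groups, and among the genes so induced are inhibitors of the pathway itself, which makes the transcripts of these inhibitors widely used readouts of ERK output. CSF1R, the receptor for CSF1 and IL-34 on which microglia depend for survival, is a receptor tyrosine kinase and signals in part through this cascade.

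Brain cells sorted for CD11b from C57BL/6 mice (females of 5 months, C57BL/6J in the methods) were profiled in 9 libraries with a 10x Genomics 3′ kit. Ctrl mice stayed untreated. D0 mice had taken PLX5622, an inhibitor of CSF1R, in a diet of 1200 mg/kg for 14 days, and D2 mice had the same diet and then 2 days of control diet. Each of the 3 Ctrl libraries held 1 brain and each of the 3 D0 and 3 D2 libraries 2 pooled brains. The brains, without cerebellum, were dissociated with enzymes at 37 °C. D0 and D2 hold the cells found after the diet, whether they outlived the drug or arose during or after it. The library D2-3 stands apart, with 87.7% of its 644 microglia-like cells in a cluster of dividing cells, and was left out of the main tests. D2 below means D2-1 and D2-2 unless D2-3 is named.

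Libraries held 20257894 to 61230741 unique molecular identifiers (UMIs, tags that count each captured transcript once). Of 28655 cells kept in 8 libraries, 22094 were microglia-like, a name given to clusters by marker genes, with 1554 to 3735 in each library. All 12 microglia markers were detected in them, and the summed marker level ranged over 33765–39130 UMIs per 1000000 (CPM) in Ctrl, 25173–27330 in D0 and 21427–22588 in D2. Neutrophil markers summed to 7.06–32.9 CPM in the same cells of Ctrl, 56.8–203 in D0 libraries and 52.2–201 in D2 libraries, and markers of mitosis to 9.30–19.1, 564–670 and 800–869 CPM. The files of Ctrl-1, all D0 libraries, D2-1 and D2-2 name Cell Ranger 3.0.2, and those of Ctrl-2, Ctrl-3 and D2-3 name 3.1.0, the version that the labels give for all libraries. Levels below are CPM of the UMIs summed over the cells of a type in a library, scaled by library totals. They count 3′ ends and are compared between groups and cell types, never between genes. Orders and overlaps of libraries are read on this scale. Fold changes also use scaling factors of edgeR (TMM), which in microglia-like cells were 1.04 to 1.13 in Ctrl, 0.896 to 0.968 in D0. In D2-1 and D2-2 they were 1.02 and 0.978. Fold changes can therefore differ from the ratio of the levels shown.

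The bases just upstream of the annotated gene start are shown for the 3 members that fell in microglia-like cells and for Dusp5, the member that did not follow them. They are RefSeq sequence of GRCm38.p6, plus strand, written 5′ to 3′, and capitals mark CGGAAG on either strand, a core bound by ETS factors, in the first 3 lines and CArG boxes, the sites of SRF, in the last.
Dusp6, chr10:99262981-99263230: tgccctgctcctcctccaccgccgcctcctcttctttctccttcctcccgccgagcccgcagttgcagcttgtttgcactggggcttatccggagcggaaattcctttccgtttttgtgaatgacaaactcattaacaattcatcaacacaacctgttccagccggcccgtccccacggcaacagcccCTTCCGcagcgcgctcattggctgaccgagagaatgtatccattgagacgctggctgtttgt
Dusp7, chr9:106368382-106368631: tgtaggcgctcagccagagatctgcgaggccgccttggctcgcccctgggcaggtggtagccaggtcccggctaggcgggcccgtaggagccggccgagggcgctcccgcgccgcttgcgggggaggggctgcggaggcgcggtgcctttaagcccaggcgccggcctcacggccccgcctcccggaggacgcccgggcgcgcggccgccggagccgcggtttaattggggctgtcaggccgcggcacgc
Spry1, chr3:37639697-37639946: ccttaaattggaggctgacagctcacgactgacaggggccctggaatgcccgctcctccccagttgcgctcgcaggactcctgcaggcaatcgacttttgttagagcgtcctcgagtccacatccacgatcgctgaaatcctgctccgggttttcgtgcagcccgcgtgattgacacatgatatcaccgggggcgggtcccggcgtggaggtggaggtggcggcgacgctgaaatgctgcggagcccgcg
Dusp5, chr19:53528895-53529108: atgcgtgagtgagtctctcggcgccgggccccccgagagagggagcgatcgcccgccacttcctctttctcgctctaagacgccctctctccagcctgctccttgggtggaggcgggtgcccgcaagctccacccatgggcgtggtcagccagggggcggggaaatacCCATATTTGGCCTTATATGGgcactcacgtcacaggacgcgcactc

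Of the 4 sequences, that of Dusp6 holds 1 CGGAAG match, 62 bases before the RefSeq start, and those of Dusp7 and Spry1 hold none. The Dusp5 sequence holds 2 adjacent CArG boxes, which start 82 and 72 bases before its RefSeq start. GC content was 56.4% for Dusp6, 77.2% for Dusp7, 62.4% for Spry1 and 65.0% for Dusp5. Over the windows of 250 bases before all 32851 RefSeq starts, searched on both strands, CGGAAG was found in 13.6%, and 3 of 7 member windows held it, those of Dusp6, Spred1 and Spred2. The CArG box was found in 1.47% of windows (482) and among members only in Dusp5. TGACGT, the core of the cAMP response element, was found in 6.47% of windows and in those of Dusp5 and Spred2, and TGANTCA, the AP-1 site, in 6.75% and in no member window. A match describes the letters and does not show a site in use.

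Dusp6, on chr10:99263231-99267489 (plus strand, GRCm38, protein coding), encodes a cytoplasmic phosphatase that removes the activating phosphates from ERK1 and ERK2. In microglia-like cells its level was 287, 219 and 193 CPM in the Ctrl libraries, 134, 61.9 and 88.5 in D0 and 110 and 56.9 in D2. Every D0 and D2 library lay below every Ctrl library, and D0 and D2 overlapped. The means were 233 ± 48.3 (SD, n = 3), 94.8 ± 36.3 (n = 3) and 83.3 ± 37.3 (n = 2). The fall was 2.14-fold in D0 (log2 fold change −1.10 ± 0.28 SE, adjusted p = 0.0241 by edgeR's quasi-likelihood test) and 2.59-fold in D2 (−1.37 ± 0.33, adjusted p = 0.0172). The D0 call was lost when Ctrl-1, Ctrl-2, D0-2 or D0-3 was left out (adjusted p = 0.0579, 0.0573, 0.0865 and 0.0709) or dividing cells were removed (−0.98, adjusted p = 0.0601). The D2 call was lost without D2-2 (adjusted p = 0.134) and held with D2-3 included (−1.65, adjusted p = 0.0312).

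Dusp7, on chr9:106368632-106375724 (plus strand), encodes a second cytoplasmic phosphatase specific for ERK. Its level was 111, 115 and 122 CPM in Ctrl, where it varied least among the members for its mean, 52.8, 30.9 and 51.0 in D0 and 52.1 and 15.9 in D2. No treated library reached the lowest Ctrl library, and of the D2 pair D2-1 lay within the D0 libraries and D2-2 below them. From 116 ± 5.68 (SD, n = 3) in Ctrl it fell 2.27-fold in D0 (log2 fold change −1.18 ± 0.34, adjusted p = 0.038) and 3.18-fold in D2 (−1.67 ± 0.40, adjusted p = 0.0183). The D0 call was lost when any of the 6 Ctrl and D0 libraries was left out (adjusted p from 0.0517 to 0.141), without dividing cells (0.0894) and with the Cell Ranger version in the fit (−1.04, adjusted p = 0.169). The D2 call was lost with the version in the fit (−1.52, adjusted p = 0.0994) and held with D2-3 included (−1.50, adjusted p = 0.0367).

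Dusp4 and Dusp5 encode the nuclear phosphatases of the set, which dephosphorylate ERK in the nucleus. Dusp5, on chr19:53529109-53542431 (plus strand), had 1.28, 2.67 and 3.59 CPM in Ctrl, 2.67, 7.96 and 6.59 in D0 and 4.21 and 4.53 in D2. Both D2 libraries lay above every Ctrl library, whereas D0-1 lay at the level of Ctrl-2. These levels rest on 34 to 286 UMIs per library, and the antisense gene AC137853.2 overlaps Dusp5, so that its UMIs could be misassigned if strand was not used. The log2 fold change was 1.42 ± 0.46 in D0 (adjusted p = 0.0559) and 0.89 ± 0.52 in D2 (adjusted p = 0.267), so Dusp5 did not pass the test in either. With the replicate number as a block, D0 passed (1.40, adjusted p = 0.0136). Of 25 other settings, that block among them, Dusp5 passed in 6 in D0 and in 1 in D2.

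Dusp4, on chr8:34807297-34819894 (plus strand), had 1.13, 5.51 and 7.51 CPM in Ctrl, 0.733, 6.98 and 3.40 in D0 and 2.08 and 2.47 in D2. The groups overlapped, and the libraries of Ctrl and of D0 each spanned more than the distance between the groups. Its log2 fold change was −0.08 ± 0.74 in D0 (adjusted p = 0.951) and −0.97 ± 0.91 in D2 (adjusted p = 0.502). At 14 to 251 UMIs per library, no change of Dusp4 was detectable.

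**Figure D1:**
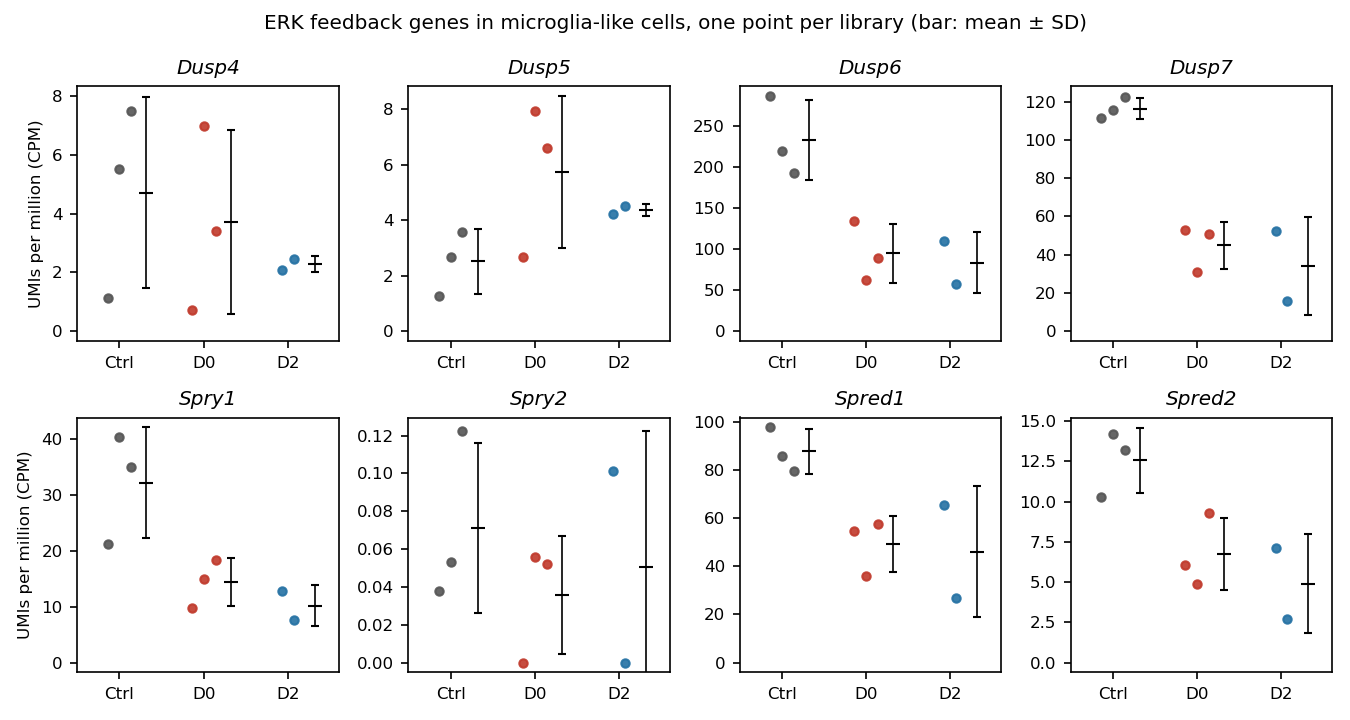
Level of each of the 8 genes in microglia-like cells, in CPM (each panel with its own axis), with 1 point per library for Ctrl (grey), D0 (red) and D2 (blue, without D2-3) and bars for the mean ± SD. For Dusp6 and Dusp7 all D0 and D2 points lie below the lowest Ctrl points, 193 and 111 CPM, whereas for Dusp5 both D2 points lie above the highest Ctrl point, 3.59 CPM.

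The Sprouty proteins restrain Ras and Raf activation below receptor tyrosine kinases. Spry1, on chr3:37639947-37644598 (plus strand, overlapped by the minus-strand transcript Gm42922), had 21.2, 40.4 and 34.9 CPM in Ctrl, 9.73, 15.0 and 18.3 in D0 and 12.7 and 7.57 in D2. All treated libraries lay below Ctrl-1, the lowest Ctrl library. Spry1 fell 2.94-fold in D2 (log2 fold change −1.56 ± 0.38, adjusted p = 0.0187), and in D0 its log2 fold change was −0.96 ± 0.31 (adjusted p = 0.0594). With the replicate block the D0 value passed (−0.96, adjusted p = 0.043). It passed in 7 of 25 other settings, that block among them. With the Cell Ranger version in the fit Spry1 passed in neither (−0.27 in D0, adjusted p = 0.631, and −0.87 in D2, adjusted p = 0.202), and the D2 call was also lost without Ctrl-2, Ctrl-3 or D2-2 (adjusted p = 0.0555, 0.0523 and 0.145). With D2-3 included Spry1 was at −1.79 in D2 (adjusted p = 0.0236). Spry2, on chr14:105891947-105896819 (minus strand), had 1, 1 and 3 UMIs in the Ctrl libraries, 0, 2 and 1 in D0 and 2 and 0 in D2. It was the member that failed the filter on low counts, and no difference between groups was detectable at this depth.

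The Spred proteins, relatives of Sprouty, recruit neurofibromin to the membrane to switch Ras off. Spred1, on chr2:117121374-117182279 (plus strand), had 97.9, 85.8 and 79.7 CPM in Ctrl, 54.6, 35.9 and 57.5 in D0 and 65.4 and 26.8 in D2. Spred2, on chr11:19924375-20024026 (plus strand), had 10.3, 14.2 and 13.2 CPM in Ctrl, 6.07, 4.90 and 9.26 in D0 and 7.10 and 2.72 in D2. Neither gene overlapped between Ctrl and the treated libraries, and for both genes D2-2 was the lowest of all libraries. Neither passed the test, with log2 fold changes of −0.63 ± 0.27 (adjusted p = 0.133) and −0.71 ± 0.33 (0.159) in D0 and −0.82 ± 0.31 (0.0981) and −1.22 ± 0.39 (0.0551) in D2 for Spred1 and Spred2. Of 25 other settings, Spred1 passed in 4 in D0 and in 4 in D2, and Spred2 in 0 and 6. Without D2-1, Spred1 passed in D2 (−1.54, adjusted p = 0.00681), and without D2-2 it was at −0.34 (adjusted p = 0.421).

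Of the 7 members tested in microglia-like cells, 2 were called lower in D0 and 3 in D2, and none was called higher. Over all 12407 genes tested, 7.42% were called lower in D0 and 7.74% in D2. The median log2 fold change of the 7 members was −0.71 in D0 and −1.22 in D2, beside −0.05 and −0.03 for all genes tested. In CPM by library totals, every D0 library lay below every Ctrl library for 5 of the 7 and every D2 library for 5 of the 7 (Dusp6, Dusp7, Spry1, Spred1 and Spred2 in both), and over all genes this was so for 36.0% and 34.8%. Once levels are divided by the TMM factors, Spry1 and Spred2 of D0-3 lie above those of Ctrl-1. The share of all genes was not counted on that scale. With D2-3 included, the D0 calls of Dusp6 and Dusp7 were lost (−1.08 and −1.16, adjusted p = 0.214 and 0.153). With library totals alone as scaling, the median of all genes moved to −0.26 and −0.14, and no called member changed direction. D0 and D2 share their Ctrl libraries, so the comparisons with Ctrl are not independent of each other. Whether neutrophil transcripts, the share of dividing cells or the Cell Ranger version have a part in these falls was not tested beyond the alternatives given. Among the libraries that name Cell Ranger 3.0.2, Ctrl-1 is the lone Ctrl library, so a comparison within that version would rest on 1 Ctrl library.

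In the test of D2 against D0, which asks whether 2 days without drug moved the levels, none of the 7 members was called, and neither was any of all genes tested (0%, with 843 genes at an unadjusted p under 0.05 and 27 called by DESeq2). All 7 log2 fold changes were negative, from −0.88 to −0.19, with adjusted p from 0.708 to 0.862 and none at an unadjusted p under 0.05. Their median was −0.51, beside −0.01 for all genes. For Dusp6, Dusp7, Dusp4 and Spred1 the sign changed when 1 library was left out. D2-1 lay above D2-2 for Dusp6, Dusp7, Spry1, Spred1 and Spred2, and Dusp7 differed most between them, 52.1 against 15.9 CPM.

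The share of cells with a UMI was read at equal depth. After each cell was thinned to 2000 UMIs, Dusp6 was found in 42.2%, 32.8% and 30.2% of Ctrl microglia-like cells, 24.1%, 11.8% and 15.4% of D0 and 20.3% and 11.5% of D2 cells. No D0 or D2 share reached the lowest Ctrl share. Without thinning, the means were 70.6% ± 5.52 in Ctrl, 43.5% ± 7.50 in D0 and 34.3% ± 9.96 in D2, at median depths of 7101, 8265 and 6281 UMIs. Dendritic cell-like cells, where Dusp6 was lowest, at median depths of 9549 to 11166 UMIs gave thinned shares of 0% in Ctrl, 1.63% ± 1.42 in D0 and 4.25% ± 2.69 in D2. Between 37 and 336 microglia-like cells per library held under 2000 UMIs and were left out. Cells with UMIs of 2 or more of the 8 members made up 19.99%, 18.5% and 15.7% of thinned Ctrl cells, 7.09%, 4.001% and 6.49% of D0 and 7.74% and 1.89% of D2 cells, with no overlap between Ctrl and treated libraries.

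The microglia-like clusters, made without the pathway genes, were filled differently by the groups. Most cells of Ctrl-1 were in cluster 4 (led by Myo18b, Slc8a1 and Csmd3) and most of Ctrl-2 and Ctrl-3 in cluster 2 (P2ry13, P2ry12), whereas cluster 1 (Chst2, Igf1, Spp1) was the largest in D0-1 and D2-2, cluster 3 (Dusp2, Gadd45b, Cxcl2, Tnf) in D0-2 and D0-3 and cluster 8 (Ccl12, Nes, Mcm6) in D2-1. Levels were therefore also read within clusters, in libraries with at least 20 cells there. In cluster 4, Dusp7 had 111, 121 and 139 CPM in Ctrl, 71.7, 30.7 and 68.7 in D0 and 81.6 and 11.6 in D2, again with no overlap between Ctrl and treated libraries. Dusp7 lay below Ctrl in all D0 libraries in each of 7 clusters and in all D2 libraries in each of 5. Dusp6 did so in 5 of 7 and 3 of 5 clusters and overlapped in clusters 1 and 3. Over all microglia-like cells, 36.0% of all genes tested lay below Ctrl in this way in D0 and 34.8% in D2. The share of all genes within clusters was not counted. The clusters are parts of the same libraries, so these counts are not separate results. In cluster 5 (Fosb, Egr1) Dusp6 had 422, 497 and 296 CPM in Ctrl, 185, 112 and 133 in D0 and 132 and 75.4 in D2, the highest Ctrl levels and the widest gap of any cluster read. In cluster 3 it ranged over 59.3–181 CPM in Ctrl, 52.8–118 in D0 and 58.1–96.7 in D2, and the groups overlapped.

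Dusp5 was concentrated in cluster 3. This cluster held 11.8%, 34.0% and 47.7% of the Dusp5 UMIs of microglia-like cells in Ctrl, 56.9%, 79.7% and 68.3% in D0 and 42.2% and 54.5% in D2. It made up 1.20%, 3.45% and 4.62% of microglia-like cells in Ctrl, 13.8%, 44.9% and 22.8% in D0 and 13.02% and 11.97% in D2. Within cluster 3 the Dusp5 level was 11.2, 22.4 and 33.7 CPM in Ctrl, 10.7, 13.7 and 17.7 in D0 and 14.0 and 17.8 in D2. The groups overlapped there, and the higher mean of treated libraries was found over all microglia-like cells and not within this cluster.

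**Figure D2:**
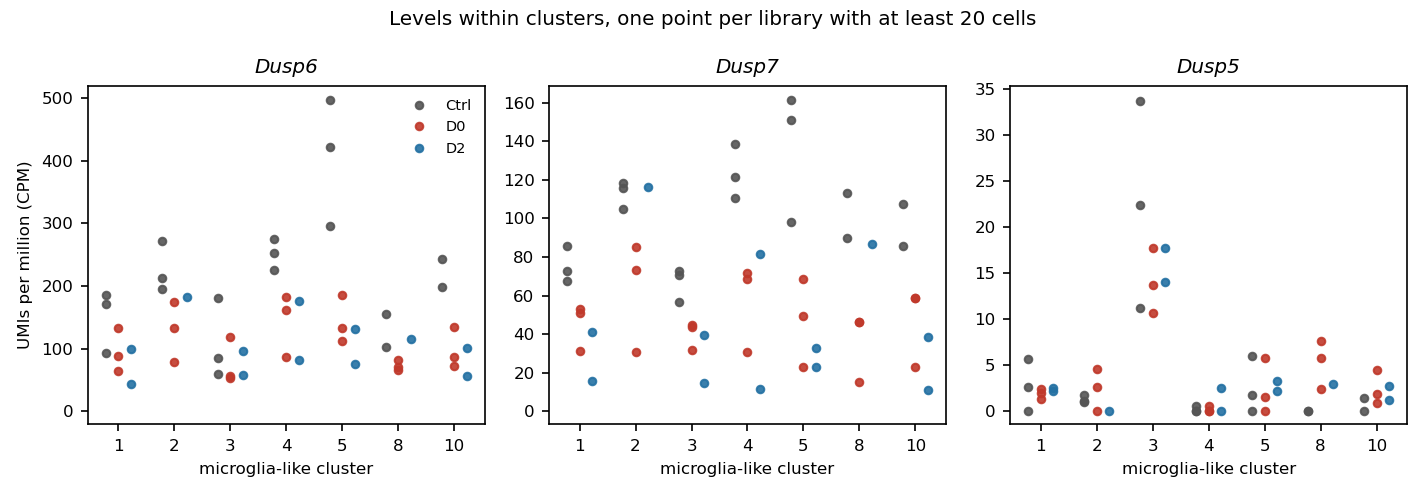
Dusp6, Dusp7 and Dusp5 levels (CPM) within 7 microglia-like clusters, 1 point per library with at least 20 cells in that cluster, for Ctrl (grey), D0 (red) and D2 (blue). Dusp7 is lower in every D0 library than in every Ctrl library of each cluster, Dusp6 overlaps in clusters 1 and 3, and Dusp5 is highest in cluster 3, where its Ctrl points (11.2 to 33.7 CPM) overlap those of D0 and D2.

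Dividing microglia-like cells, taken as cells with UMIs of at least 2 of 8 mitotic markers, numbered 5 to 12 in the Ctrl libraries, 248 to 873 in D0 and 380 and 499 in D2. In the 5 treated libraries they were compared with the other microglia-like cells of the same library. Dusp6 went from 140 to 88.7, 65.3 to 53.9 and 96.8 to 67.2 CPM in D0 and from 115 to 87.8 and 59.4 to 51.1 in D2, lower in the dividing cells of 5 of 5 libraries. Dusp7 and Spry1 were also lower in 5 of 5, Dusp7 from 58.6 to 25.7 CPM in D2-1 and Spry1 from 16.4 to 11.7 CPM in D0-2. The log2 differences were −0.40 ± 0.09 for Dusp6 (adjusted p = 0.00367), −0.51 ± 0.12 for Dusp7 (0.00692), −0.71 ± 0.14 for Spry1 (0.00181) and −0.76 ± 0.22 for Dusp4 (0.0175). Thus 4 of 7 members were called, all lower, where 44.1% of all 11177 genes tested were called (2481 lower), and the median was −0.40 against −0.04 for all genes. Dusp5, Spred1 and Spred2 were at −0.07, −0.03 and −0.08 (adjusted p from 0.753 to 0.858). The Dusp4 call was lost without D0-2 (−0.44, adjusted p = 0.289) and with DESeq2 (adjusted p = 0.16), and the Spry1 call when cells were thinned to 2000 UMIs (−0.29, adjusted p = 0.445).

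**Figure D3:**
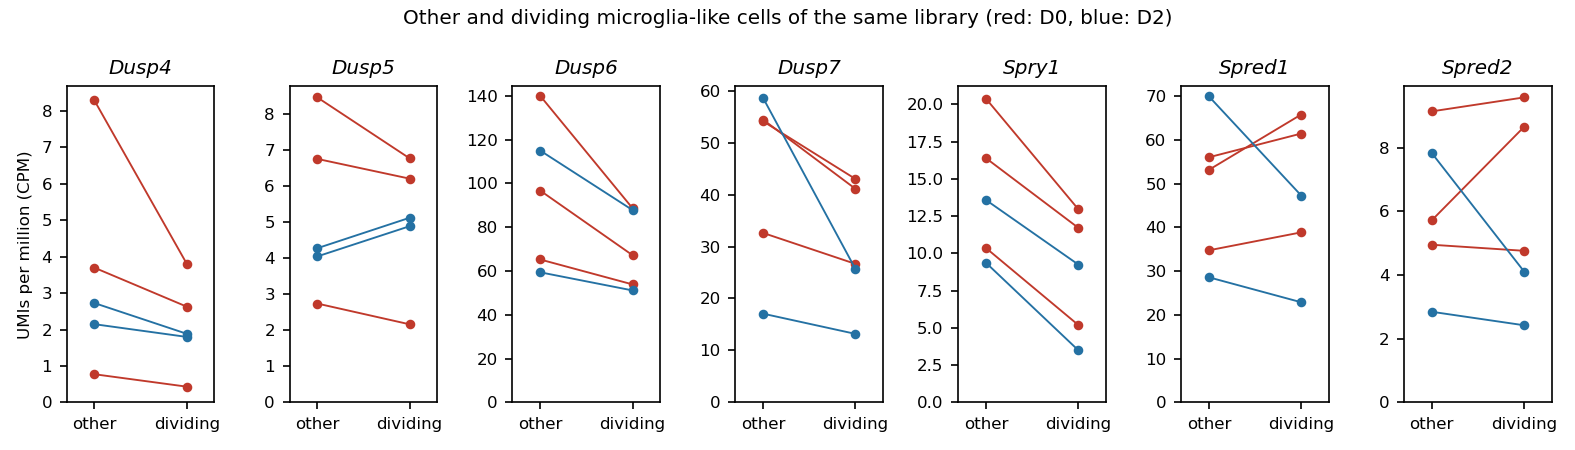
Level of 7 members (CPM) in the other and the dividing microglia-like cells of each D0 (red) and D2 (blue) library, joined by a line per library. The lines for Dusp6, Dusp7 and Spry1 fall in 5 of 5 libraries, whereas those of Dusp5, Spred1 and Spred2 take no common direction.

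The members differed in the cell types that held them (libraries with at least 20 cells of a type, over groups). Dusp6 was highest in microglia-like cells, with 144 CPM ± 82.0 (SD, n = 8), and in border-associated macrophage-like cells, with 131 ± 83.3 (n = 5), and these did not differ beyond their spread. Endothelial-like cells had 72.7 ± 36.5 (n = 8), monocyte-like cells 70.3 ± 55.6 (n = 7) and neutrophil-like cells 53.2 ± 33.6 (n = 7), each within the spread of its neighbour, down to 14.5 ± 6.69 (n = 7) in dendritic cell-like cells. Dusp7 had 69.0 ± 41.3 in microglia-like, 65.6 ± 13.5 in endothelial-like and 61.6 ± 44.1 in border-associated macrophage-like cells, and 20.6 ± 11.5 or less elsewhere. These orders mix the groups. In Ctrl, Dusp7 had 116 ± 5.68 CPM (n = 3) in microglia-like and 65.2 ± 24.1 (n = 3) in endothelial-like cells, whereas in D0 it had 44.9 ± 12.2 against 64.2 ± 6.89 and in D2 34.0 ± 25.6 against 68.3 ± 1.34, so that the endothelial-like level was the higher in all 5 treated libraries. Dusp6 had 233 ± 48.3 and 71.7 ± 49.1 CPM in these types in Ctrl, and 94.8 ± 36.3 and 86.5 ± 38.1 in D0, where they did not differ beyond their spread.

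Dusp5 had the opposite distribution. It had 184 CPM ± 51.4 (n = 2) in lymphoid-like, 94.7 ± 52.1 (n = 7) in monocyte-like, 79.5 ± 42.1 (n = 7) in dendritic cell-like and 65.9 ± 34.7 (n = 7) in neutrophil-like cells, whose neighbours in this order overlapped. It then dropped to 8.99 in astroglial-like (n = 1) and 4.19 ± 2.19 (n = 8) in microglia-like cells, beyond the spread of the neutrophil-like cells. Dusp4 stayed at 6.74 CPM or less in each type.

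Spry1 was highest in cells of the vessel wall, with 93.5 ± 43.5 (n = 6) in mural-like and 44.6 ± 6.63 (n = 8) in endothelial-like cells, ahead of 19.97 ± 11.8 (n = 8) in microglia-like cells. Spry2 was found at 193 ± 68.0 (n = 2) in lymphoid-like and 168 (n = 1) in astroglial-like cells, at 19.3 ± 20.2 (n = 6) in mural-like cells and at 0.0529 ± 0.0431 (n = 8) in microglia-like cells. Spred1 had 121 CPM in astroglial-like cells (n = 1), and 63.7 ± 29.3, 63.0 ± 24.4 and 60.5 ± 19.3 in border-associated macrophage-like, microglia-like and mural-like cells, which did not differ beyond their spread. Spred2 was highest in endothelial-like cells, 38.2 ± 9.85 (n = 8), and had 8.47 ± 4.01 (n = 8) in microglia-like cells.

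**Figure D4:**
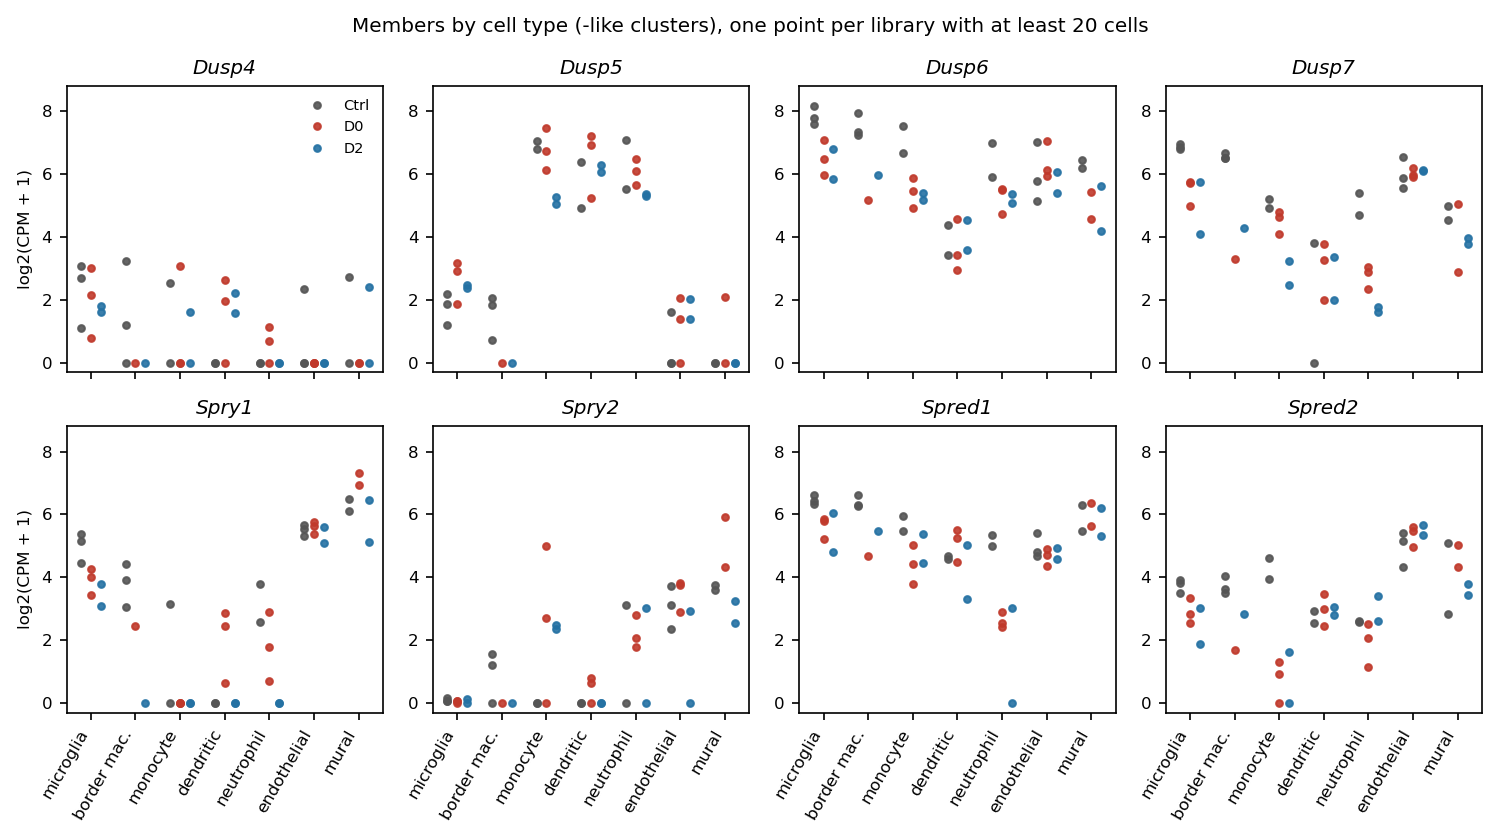
Level of each member as log2(CPM + 1) in 7 cell types, 1 point per library with at least 20 cells of the type, for Ctrl (grey), D0 (red) and D2 (blue). Dusp5 is high in monocyte-, dendritic cell- and neutrophil-like cells (means of 94.7, 79.5 and 65.9 CPM) and low in microglia-like cells (4.19 CPM), Spry1 is highest in mural-like cells (93.5 CPM), and in Ctrl Dusp6 and Dusp7 have their highest means in microglia-like cells (233 and 116 CPM).

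Endothelial-like cells do not depend on CSF1R and passed through the same diet, dissociation and library. Their Dusp6 level was 127, 34.5 and 53.3 CPM in Ctrl, 130, 69.0 and 60.3 in D0 and 66.2 and 41.1 in D2. Their Dusp7 level was 57.5, 45.95 and 92.3 CPM in Ctrl, 59.5, 61.1 and 72.1 in D0 and 69.3 and 67.4 in D2, and the groups overlapped for both genes. Spry1 had 49.3, 45.95 and 39.0 CPM in Ctrl, 48.2, 53.3 and 40.7 in D0 and 47.7 and 32.9 in D2. None of the 5 members tested was called in D0 (log2 fold changes of −0.26 to 0.37, adjusted p from 0.953 to 0.999) or in D2 (−0.29 to 0.51, adjusted p from 0.684 to 0.991), none was at an unadjusted p under 0.05, and DESeq2 called none. Over all 8220 genes tested, 0.0122% were called in D0 and 0.0608% in D2. With 48 to 187 cells per library, these sums are much smaller than those of microglia-like cells, and microglia markers summed to 1961 to 3578 CPM in them.

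The difference itself was tested with the library as a block, a test chosen after the data had been seen. The log2 fold change in D0 was lower in microglia-like than in endothelial-like cells by −1.43 ± 0.27 for Dusp6 (adjusted p = 0.000342) and −1.13 ± 0.30 for Dusp7 (adjusted p = 0.0208). In D2 the difference was −1.83 ± 0.34 for Dusp7 (0.000283), −1.81 ± 0.46 for Spred2 (0.015), −1.49 ± 0.39 for Spry1 (0.0186) and −1.06 ± 0.32 for Dusp6 (0.0497). Over all 12983 genes of this fit, 3.40% were called in D0 and 3.37% in D2. The D0 difference of Dusp6 was called without any 1 library and lost with D2-3 included (adjusted p = 0.103). That of Dusp7 was lost without Ctrl-1, Ctrl-2 or D0-2, and without D2-2 none of the 4 D2 differences was called. The D2 difference of Dusp6 was lost in 6 of 11 other settings, which include upper-quartile scaling (adjusted p = 0.0543) and leaving out Ctrl-2, Ctrl-3 or D2-1 (adjusted p = 0.273, 0.201 and 0.0784). Those of Spry1 and Spred2 were each lost in 4 of 11, without Ctrl-2, Ctrl-3 or D2-2 and with D2-3 (adjusted p up to 0.183 and 0.431), and that of Dusp7 in 1.

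**Figure D5:**
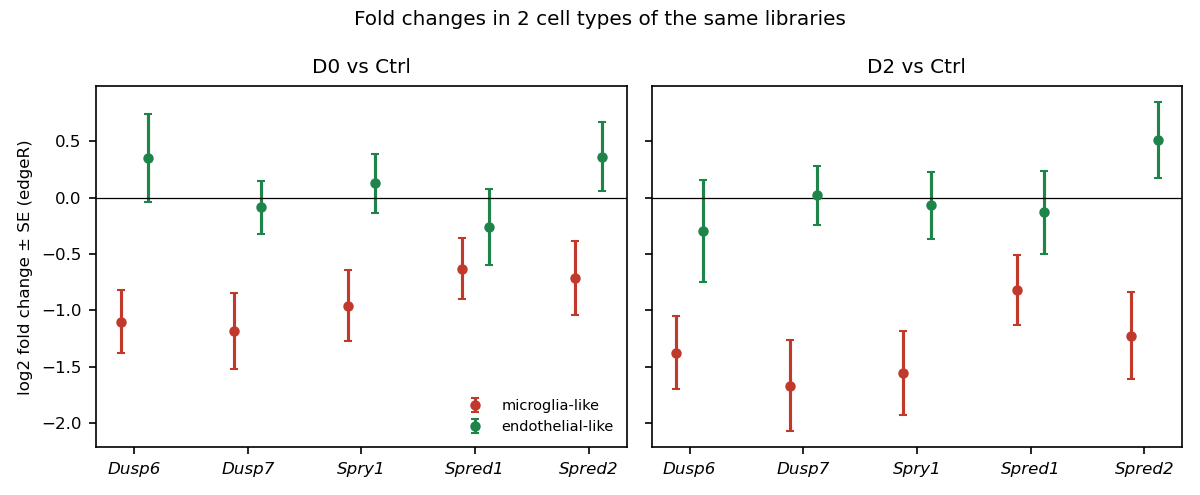
Log2 fold change against Ctrl ± SE (edgeR) of 5 members in microglia-like (red) and endothelial-like (green) cells of the same libraries, for D0 (left) and D2 (right). All red points lie below 0, from −1.67 to −0.63, and the green points lie from −0.29 to 0.51.

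In neutrophil-like cells Dusp7 had 41.0 and 24.8 CPM in Ctrl-2 and Ctrl-3 (16 and 5 UMIs), 6.43, 4.09 and 7.30 in D0 and 2.38 and 2.05 in D2 (1 and 2 UMIs). The treated libraries lay below both Ctrl libraries, and Ctrl-1 held too few cells to be used. Its log2 fold change was −3.46 ± 0.79 in D2 (adjusted p = 0.049) and −2.26 in D0 (adjusted p = 0.239). That was 1 of 4 members called in D2 and 0 in D0, where 2.70% and 0.0878% of 4557 genes were called. By DESeq2, with the replicate block or with only the compared groups in the fit, none of the 4 was called in D2. Csf1r was highest in microglia-like cells and also present in border-associated macrophage-like and monocyte-like cells (means over groups of 1659 and 641 CPM). As a share of the microglia-like level of the same library, it stood in neutrophil-like cells at 36.6% and 19.5% in Ctrl. It was at 24.7%, 8.77% and 9.47% in D0 and at 9.12% and 3.53% in D2. The microglia-like Dusp7 level multiplied by these shares gives 42.3 and 23.9 CPM in Ctrl, 13.04, 2.71 and 4.83 in D0 and 4.75 and 0.561 in D2, above the measured level in Ctrl-2, D0-1 and D2-1 and below it in the other 4 libraries. For Dusp6 the same product lay below the measured level in each of these libraries, with 80.2 against 125 CPM in Ctrl-2 and 2.01 against 32.7 in D2-2. Microglia markers summed to 6852 to 12580 CPM in neutrophil-like cells of Ctrl, 1965–4574 in D0 and 756–1554 in D2. Whether microglial transcripts have a part in the Dusp7 fall of these cells was not tested.

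Border-associated macrophage-like cells, the other resident macrophages of the brain, also depend on CSF1R. D0-1 and D2-2, with 73 and 20 of them, were the only treated libraries with at least 20, so the test used libraries with at least 10, which added D0-2 (10 cells) and D2-1 (13 cells). Dusp7 had 89.3, 90.6 and 101 CPM in the Ctrl libraries, 8.86 and 8.15 in D0-1 and D0-2 (4 and 1 UMIs) and 36.4 and 18.6 in D2-1 and D2-2 (3 UMIs each). Dusp6 had 243, 152 and 162 CPM in Ctrl, 35.4 and 32.6 in D0-1 and D0-2 and 72.9 and 62.1 in D2-1 and D2-2. The treated libraries lay below the 3 Ctrl libraries for both genes, with at most 16 UMIs in each. Both fell in D0, Dusp6 by 2.27 ± 0.37 and Dusp7 by 3.27 ± 0.44 on the log2 scale (adjusted p = 0.0303 for each, edgeR), and Spred1 was at −1.77 ± 0.38 (adjusted p = 0.0574). In D2, Dusp6 was at −1.48, Dusp7 at −1.89 and Spred1 at −0.61 (adjusted p = 0.266, 0.254 and 0.64). That made 2 of 3 members called in D0 and 0 in D2, where 0.590% and 0% of 6443 genes were called (652 genes in D2 at an unadjusted p under 0.05, 2 members among them, and 16 genes but no member by DESeq2). The D0 calls of both genes were lost without Ctrl-1, Ctrl-2, Ctrl-3 or D0-1 (adjusted p from 0.0937 to 0.242) and with the replicate block (−2.41 and −3.24, adjusted p = 0.383 for each), and that of Dusp6 with only the compared groups in the fit (adjusted p = 0.0516). The limit of 20 cells leaves 1 library in D0 and in D2, which is assumed to vary like the Ctrl libraries. This setting was chosen after the data had been seen, and its calls are not counted here. Over 13 other settings, the limit of 20 cells among them, the D0 log2 fold change of Dusp6 ranged from −2.41 to −2.07. That of Dusp7 ranged from −3.34 to −3.23 and that of Spred1 from −2.13 to −1.63. Microglia markers, which these cells share in part, summed to 15291 to 24673 CPM in Ctrl, 8370 in D0-1 and 7409 in D2-2, and their part in the falls was not tested.

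Other genes of the pathway were counted from lists. Of 18 further ERK output genes, 12 were tested in microglia-like cells. Of these, 1 was called lower in D0 and 2 in D2, with none higher and medians of −0.27 and −0.36. The share called lower over all genes tested was 7.42% in D0 and 7.74% in D2. Etv5, an ETS factor induced by ERK, had 34.9, 72.3 and 66.8 CPM in Ctrl, 19.1, 18.5 and 29.7 in D0 and 14.9 and 6.83 in D2. All treated libraries lay below the lowest Ctrl library, and Etv5 fell in both (log2 fold change −1.18 ± 0.34, adjusted p = 0.0387, and −2.31 ± 0.42, adjusted p = 0.00487). The D0 call of Etv5 was lost without Ctrl-2, Ctrl-3, D0-1 or D0-2 (adjusted p from 0.0919 to 0.138), without dividing cells (0.0708) and with the Cell Ranger version in the fit (−0.36, adjusted p = 0.521). Etv1, of the same family, fell by 0.67 on the log2 scale in D2 (adjusted p = 0.0211), from 36.4 to 21.2 CPM, a call lost in 5 of 25 other settings. Of the 7 other MAP kinase phosphatases, which act in part on JNK and p38, 6 were tested and none was called in D0 or D2 (medians of −0.05 and −0.12).

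Immediate-early genes, which serum response and AP-1 factors switch on within minutes of a stimulus, are the next list. All 12 were tested, and 4 were called higher in D0 (Fos, Fosl2, Ier2 and Zfp36) and 2 in D2 (Fosl2 and Ier2), with 1 lower in D2 (Jun), where 12.3% of all genes tested were called higher in D0 and 10.8% in D2. Their median log2 fold change was 0.43 in D0 and 0.13 in D2, with 2 and 4 of the 12 negative. Fosl2, a subunit of AP-1, rose from 10.4 to 20.2 CPM in both groups (1.17 in D0, adjusted p = 0.00419, and 1.06 in D2, adjusted p = 0.0108). Ier2 rose from 205 to 306 and 338 CPM (adjusted p = 0.0172 and 0.0205), and Fos from 761 to 968 CPM in D0 (0.56, adjusted p = 0.0208). In CPM the groups overlapped for Fos, with 898 in Ctrl-1 against 897 in D0-1 and 887 in D0-3. Zfp36, which destabilises cytokine transcripts, rose from 1258 to 1618 CPM in D0 (0.57, adjusted p = 0.0408) and was at 1237 in D2. Jun, the partner of Fos, fell by 0.55 on the log2 scale in D2 (adjusted p = 0.0371), from 3223 to 2043 CPM. Of 25 other settings, the D0 calls of Zfp36, Fos, Ier2 and Fosl2 were lost in 10, 6, 3 and 1 (adjusted p up to 0.614, 0.721, 0.253 and 0.106), and the D2 calls of Jun, Fosl2 and Ier2 in 9, 4 and 3 (adjusted p up to 0.233, 0.168 and 0.269). Enzymatic dissociation at 37 °C, used for all libraries, is known to induce these genes, and its part here was not tested.

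Of 28 genes of the Ras-ERK cascade, all were tested. Of these, 3 were called lower in D0 and 6 in D2, with none higher and a median of −0.07 in each. Over all genes tested, 7.42% were called lower in D0 and 7.74% in D2, and 12.3% and 10.8% were called higher. Nf1, which encodes neurofibromin, the Ras inactivator that Spred proteins bind, fell by 0.54 and 0.72 on the log2 scale (adjusted p = 0.0275 and 0.0141), from 59.8 to 35.6 and 33.5 CPM. The Raf kinase gene Araf fell by 0.42 and 0.49 (adjusted p = 0.0277 and 0.0257), and Map2k1, which encodes the kinase that activates ERK, fell by 0.88 in D2 (adjusted p = 0.00833), from 97.5 to 49.3 CPM. Rps6ka1, a kinase activated by ERK, fell by 0.52 in D2 (adjusted p = 0.0147). The calls of Nf1 and Araf in D0 were each lost in 8 of 25 other settings (adjusted p up to 0.234 and 0.229), and in D2 those of Araf, Rps6ka1, Map2k1 and Nf1 in 7, 5, 3 and 1, that of Nf1 without D2-2 (adjusted p = 0.11). Of 22 receptor tyrosine kinase genes 10 were tested, and 3 were called higher and 1 lower in D0, and 3 higher and 3 lower in D2 (medians of −0.06 and 0.36). Axl, a receptor for bound phosphatidylserine, had 4.002, 2.19 and 2.65 CPM in Ctrl, 36.4, 30.5 and 23.8 in D0 and 37.7 and 33.8 in D2, above every Ctrl library (3.55 ± 0.22 and 3.70 ± 0.23, adjusted p = 5.47e-06 and 7.01e-06). Its relative Mertk fell by 0.52 and 0.54 (adjusted p = 0.00722 and 0.0106), and Igf1r by 0.70 in D2 (adjusted p = 0.0224). The calls of Mertk were lost in 2 and 4 of 25 other settings and that of Igf1r in 7, and those of Axl in none. Csf1r itself had 2632, 3483 and 3310 CPM in Ctrl, 2369, 2417 and 2403 in D0 and 2060 and 2058 in D2, with a log2 fold change of −0.19 ± 0.14 in D0 (adjusted p = 0.355) and −0.51 ± 0.15 in D2 (adjusted p = 0.0475), a call that was lost in 14 of 25 other settings (adjusted p up to 0.473).

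For each called member the 3 genes with the most similar profile over the 8 libraries were sought among 5773 genes, by the root mean square difference of centred log2(CPM + 1) values. Those reported are Med12l (0.220) and Cep68 (0.228) for Dusp6, whose own profile has a root mean square of 0.791. For Dusp7 (0.940) they are Klhdc8b (0.179) and Fam102b (0.272), and for Spry1 (0.742) Tgm2 (0.156), Fscn1 (0.156) and Rtn1 (0.205). The 8 libraries share the split between Ctrl and treated mice, which sets much of each profile.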

How the data were processed

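For each of 9 libraries the authors deposited raw UMI counts per gene and barcode, made with Cell Ranger against mm10 and not normalized. The limits of the study were applied to cells (500–20000 UMIs, 200 or more genes, mitochondrial share up to 10%). They were clustered with scanpy 1.11.5 and leidenalg 0.10.2 (python 3.11.15; 10 components of 3000 variable genes without the pathway genes, 20 neighbours, resolution 0.6) and named by markers, so names can differ from those of the study. No doublets were removed, since Scrublet, which marked 73 of 30463 cells (0.240%), had not worked. Libraries shared at most 7 barcodes per pair.

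For each library with 20 or more cells of a type (10 or more for border-associated macrophages, which reach 20 in 1 library each of D0 and D2), their UMIs were added up, the library being the replicate, and tested with edgeR 4.0.16 (R 4.3.3; TMM, filterByExpr, quasi-likelihood test, Benjamini-Hochberg over all genes tested, called under 0.05) in 1 fit of the 3 groups. SE is the log2 fold change over the root of F. Dividing cells were tested with the library as a block. The alternatives included DESeq2 1.42.0, and those with library totals only, and the test between cell types, were chosen after the data had been seen. D2-3, which the study left out too, entered only as an alternative, and its cells were placed by their 30 nearest neighbours.

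The members and gene lists were chosen with earlier results of these data known. Named are all members and, of each pathway list, at most the 4 largest called changes per comparison at 20 CPM or more, plus Csf1r; 1 gene similar to members in profile is not reported here. Promoters were matched by symbol in RefSeq for 7 of 8 members (not Dusp4). Of the 31053 genes, 31011 were found in the GENCODE annotation of GRCm38 by identifier. The labels number the libraries of a group, and for libraries of like number the deviations from the mean of each group were correlated over genes. The r of Ctrl and D0 pairs was 0.419, 0.200 and 0.176, all over 0.1, so the blocked value stands beside each D0 result it changes. Pairs with D2 gave −0.126 to 0.265. The labels do not say that a number marks a shared day or litter.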

Additional observations from a re-analysis of the deposited data

Results flagged for a closer look

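For 6 results the change against Ctrl differed between microglia-like and endothelial-like cells of the same libraries by a test of the difference. In D0 they were Dusp6, with a log2 difference of −1.43, and Dusp7, with −1.13. In D2 they were Dusp6 (−1.06), Dusp7 (−1.83), Spred2 (−1.81) and Spry1 (−1.49). The members' change was the more negative in microglia-like cells in each. This test was chosen after the data had been seen, and of all 12983 genes it called 3.40% in D0 and 3.37% in D2. The D2 difference of Dusp6 was lost in 6 of 11 other settings. With D2-3 included none of the D0 differences and 1 of the D2 differences was called. No group holds 4 or more libraries, so none was checked for a library far from the rest of its group.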

How the results depend on the processing

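The number of members called in microglia-like cells was 2 in D0 and 3 in D2, and 0 between D2 and D0 in every setting. DESeq2 gave 4 in D0 and 5 in D2, and no filter on low counts gave 5 and 5. The shares of all genes called that are given above belong to the main setting. Counts of members in the other settings of this section stand without such a share and cannot be read against it. Leaving out 1 library gave 0 to 3 in D0 and 1 to 5 in D2. In D0, 0 members were called with D2-3 included and without dividing cells, and in D2 the Cell Ranger version as a term left 1. In neutrophil-like cells of D2 (1 called), DESeq2, only the compared groups, D2-3 included and at least 10 cells per library gave 0, no filter gave 2 and leaving out 1 library 0 to 1. In endothelial-like cells and in neutrophil-like cells of D0 none was called in any setting. In border-associated macrophage-like cells of D0 (2 called), only the compared groups gave 1, the replicate block 0 and leaving out 1 library 0 to 3, and in D2 (0 called) no filter gave 2. Dividing cells gave 2 of 4 calls when thinned and 3 to 4 without 1 library. The differences between cell types numbered 0 in D0 and 1 in D2 with D2-3, and 1 to 3 and 0 to 4 without 1 library, beside 2 and 4. Of 1788 fold changes recomputed, 1516 kept their direction and their side of the threshold, 173 lost the call, 58 gained it and 41 changed sign. The cause was not tested.

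With the replicate number as a block, 4 members were called in D0, 5 in D2 and 0 in neutrophil-like cells of D2. It added Spry1 and Dusp5 in D0 and Spred1 (−0.89, adjusted p = 0.046) and Dusp5 (1.29, adjusted p = 0.044) in D2, and changed no other call of a member in microglia-like cells. The numbers were not shown to pair D2 with the other groups.

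Signs turned as follows (log2 fold change). With the Cell Ranger version in the fit Dusp4 was at 2.06 in D0 and 1.17 in D2 and Csf1r at 0.15 in D0. Dusp4 in D0 was at 0.41 when thinned, 0.14 without dividing cells and −1.01 to 0.44 without 1 library. Zfp36 in D2 was at −0.0237 with library totals only, −0.31 with D2-3, −0.0876 with no upper limit on UMIs and −0.0525 to 0.17 without 1 library. With D2-3, Fos in D2 was at −0.0315, Spry1 in endothelial-like cells at 0.0554, and, for D2 against D0, Spred1 at 0.22 and Spred2 at 0.0213. Without 1 library, D2 against D0 ranged from −1.36 to 0.05 for Dusp4, −0.78 to 0.10 for Dusp6, −1.54 to 0.10 for Dusp7 and −0.92 to 0.29 for Spred1. In neutrophil-like cells Dusp5 ranged from −0.45 to 0.74 in D0 (0.0759 with no filter) and −1.16 to 0.0264 in D2. In endothelial-like cells of D0, Dusp6 ranged from −0.0737 to 0.91, Dusp7 from −0.27 to 0.33 and Spry1 from −0.0090 to 0.24, and in D2 Dusp6 from −0.67 to 0.28, Dusp7 from −0.16 to 0.44 (−0.0038 with upper-quartile scaling), Spry1 from −0.35 to 0.17 and Spred1 from −0.33 to 0.10. In dividing cells Dusp5 ranged from −0.17 to 0.0697, Spred1 from −0.12 to 0.10 and Spred2 from −0.23 to 0.0838. Dusp4, Dusp5 and Spry2 rest on few UMIs, which limits what their levels can show.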

Other observations

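In D2-3, whose 644 microglia-like cells were mostly in the dividing cluster 7 (87.7%), Dusp6 was at 28.7 CPM and Spry1 at 3.90 CPM, below every other library. Dusp7 was at 36.5 CPM, within the range of the other treated libraries, and Spred1 (74.5 CPM) and Spred2 (10.2 CPM) lay above them. Its Fos level was 92.6 CPM and its Jun level 416 CPM, where no other library had less than 687.9 CPM of Fos and 1763 CPM of Jun.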
